A study of Mus musculus with 8 samples.

Results

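Megakaryocytes were the 359 cells that carried the name Megakaryocytes in the cell annotation deposited with the data, out of 15168 cells in all, or 2.37%. The authors had drawn the cell types by clustering of RNA, so the RNA that sets these cells apart is described here without a test, whereas antibody tags, which took no part in the clustering, were tested. The data came from CITE-seq, which counts the RNA of single cells through a molecular barcode on each molecule (a UMI) and reads proteins on the cell surface with antibodies that carry a sequence tag. Cells positive for CD31, an adhesion protein of endothelial and many blood cells, had been sorted from the aorta-gonad-mesonephros (AGM) region of mouse embryos at embryonic day 10.5. Of the 8 libraries, 5 were WT, labelled C57BL/6, and 3 were Meis1-flox/VE-Cre, each from a pool of 2 to 5 embryos. The WT embryos lacked Cre. In Meis1-flox/VE-Cre embryos, labelled Meis1-knockout, the VE-cadherin promoter drove Cre in endothelial cells to remove the floxed exon 8 of Meis1 there and in blood cells that arise from them. The counts came from the 3′ ends of transcripts and do not read the loss of that exon directly. Beside megakaryocytes, the annotation named erythro-myeloid progenitors (EMP), the blood-forming endothelial cells that pass from endothelial to hematopoietic identity (EHT), Myeloid cells, pre-hemogenic endothelium (pre-HE), arterial endothelium (aEC) and 4 further endothelial clusters with venous markers (vEC_1 to vEC_4, pooled as vEC unless numbered).

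Megakaryocytes are the cells that release platelets. They mature by making platelet adhesion receptors, filling granules with clotting and growth factors, and building the microtubule coil of the later platelet, while they stop dividing and copy their DNA without division. GATA1, its cofactor FOG1, GFI1B, NFE2 and ETS factors such as FLI1 are known to drive this program, and in the embryo the first megakaryocytes arise beside the first red cells, from progenitors that can give both. MEIS1, a homeodomain protein, is known for its part in hematopoietic progenitors and megakaryocytes.

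The starts of megakaryocyte genes are known to hold sites for GATA and ETS proteins, so the 250 bases before the start site are shown for the 3 marker genes and for Ly6g6f, the gene outside the lists that stood widest apart from the other cell types. Capitals mark, on either strand, the GATA letters, which were AGATAA in 4 forms (with A or T at the first base and A or G at the last), and the ETS letters, which were AGGAAG in 2 forms (with A or C at the first base). The motifs can overlap at their ends, and each was counted on its own. The sequences are from RefSeq on GRCm38.p6 and are printed 5′ to 3′ along the strand of the gene.
Pf4 (chr5:90772185-90772434, plus strand): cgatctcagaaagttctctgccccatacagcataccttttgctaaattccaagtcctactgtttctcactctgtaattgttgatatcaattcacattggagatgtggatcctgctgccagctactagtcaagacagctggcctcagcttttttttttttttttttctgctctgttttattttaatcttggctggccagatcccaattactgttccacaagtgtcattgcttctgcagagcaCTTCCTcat
Itga2b (chr11:102469884-102470133, minus strand): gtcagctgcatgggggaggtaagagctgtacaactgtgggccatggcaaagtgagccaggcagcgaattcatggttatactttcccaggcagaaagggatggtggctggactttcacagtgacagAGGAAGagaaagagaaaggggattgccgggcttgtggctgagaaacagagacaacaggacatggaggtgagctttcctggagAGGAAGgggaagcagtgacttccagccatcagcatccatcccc
Gp9 (chr6:87777820-87778069, plus strand): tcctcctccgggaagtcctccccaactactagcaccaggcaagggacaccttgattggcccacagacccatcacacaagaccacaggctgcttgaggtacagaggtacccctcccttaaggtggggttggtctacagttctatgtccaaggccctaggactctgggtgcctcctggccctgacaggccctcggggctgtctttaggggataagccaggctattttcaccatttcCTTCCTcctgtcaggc
Ly6g6f (chr17:35085596-35085845, minus strand): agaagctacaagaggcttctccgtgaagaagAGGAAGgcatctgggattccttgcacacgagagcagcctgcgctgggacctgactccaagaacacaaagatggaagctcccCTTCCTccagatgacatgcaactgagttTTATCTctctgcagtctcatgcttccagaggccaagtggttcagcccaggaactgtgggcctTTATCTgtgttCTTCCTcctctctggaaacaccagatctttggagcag

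Pf4 and Gp9 each held 1 run of ETS letters, 9 and 16 bases before the start, and Itga2b held 2, 125 and 43 bases before it. None of these 3 windows held the GATA letters. Ly6g6f held 2 runs of GATA letters, 110 and 48 bases before the start, and 3 of ETS letters. Of the 57 leading genes (defined below) with a window, 28.1% held GATA letters and 54.4% ETS letters. Among all 32851 windows these shares were 26.5% and 39.2%, and among the 4130 genes of at least 20 CPM (UMIs per 1000000 UMIs of a library's summed megakaryocytes) in megakaryocytes they were 19.6% and 55.0%. A match of letters is a description and does not show binding.

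The 3 marker genes were counted in the cells that carried the label, though RNA had also drawn the clusters. Pf4, platelet factor 4, is a chemokine of the alpha granule, Itga2b encodes the alpha chain of the fibrinogen receptor (CD41), and Gp9 is a chain of the von Willebrand factor receptor. After each cell was thinned to 5000 UMIs, a Pf4 UMI was seen in 94.4% of the 359 megakaryocytes (exact 95% interval 91.5 to 96.6), an Itga2b UMI in 85.8% and a Gp9 UMI in 62.7%. In vEC cells, which should lack all 3, the shares were 3.42%, 2.91% and 0.101%, with a median depth of 15861 UMIs against 18457 in megakaryocytes before thinning. In EMP they were 6.29%, 17.8% and 5.09%, in EHT cells 11.5%, 6.60% and 5.98%, and in Myeloid cells 16.4%, 2.30% and 0.878%. Without thinning the megakaryocyte shares were 96.9%, 99.4% and 86.1%. No cell lacked UMIs of all 3 genes. Pf4 was nevertheless below 1000 CPM in 46 of the 359 cells. In those 46 cells the globin and other erythroid genes summed to 45371 CPM against 5406 in the other 313, and the adhesion receptors to 2460 against 7070 CPM.

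Megakaryocytes made up 2.15%, 1.84%, 0.768%, 0.924% and 4.82% of the cells of WT 1 to 5, which is 33, 28, 5, 24 and 102 cells. They were 2.87%, 2.65% and 1.84% of the cells of Meis1-flox/VE-Cre 1 to 3, which is 64, 65 and 38 cells. WT 5 lay above all other libraries, and the Meis1-flox/VE-Cre libraries lay within the WT range. The mean share was 2.45% ± 0.539 (SD, n = 3) in Meis1-flox/VE-Cre and 2.10% ± 1.63 (SD, n = 5) in WT, a difference of 0.354 percentage points that was smaller than the spread between libraries (p = 0.821, exact two-sided permutation test over 56 splits). Without WT 5 the difference was 1.03 points (p = 0.114, exact permutation test), and as a share of blood cells only it was -0.114 points (p = 0.946, exact permutation test). Shares refer to sorted CD31-positive cells and not to the embryo.

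**Figure D1:**
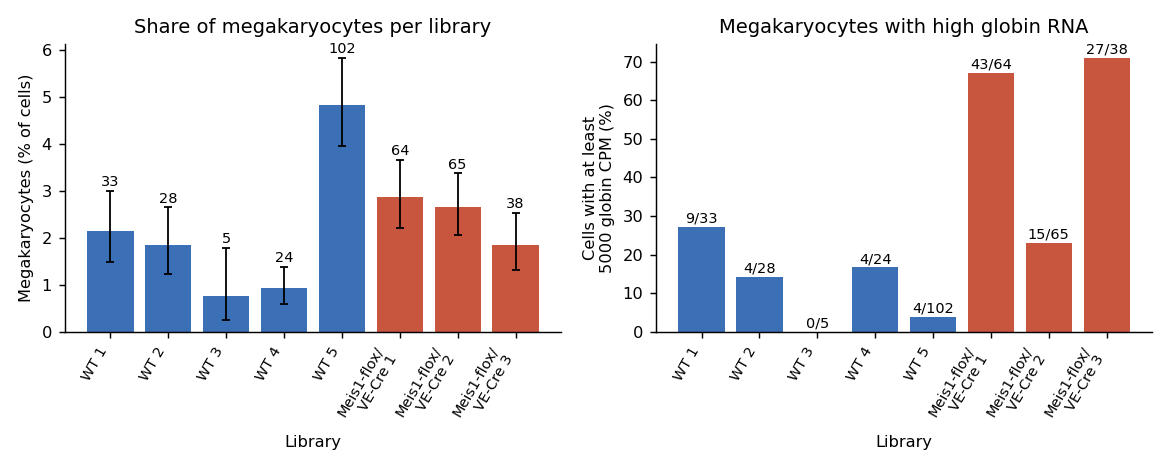
Left, megakaryocytes as a percent of all cells of each library, with the number of megakaryocytes above each bar and exact 95% binomial intervals, which cover counting error only. Right, the percent of megakaryocytes with globin RNA of at least 5000 CPM, with cell numbers. WT bars are blue and Meis1-flox/VE-Cre bars red. WT 5 has the highest share, 4.82%, and globin-rich cells were 67.2% and 71.1% of megakaryocytes in Meis1-flox/VE-Cre 1 and 3.

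Libraries differed in depth. Total UMIs over all cells ranged from 20484881 to 79429129, and the median UMIs of a megakaryocyte from 13890 to 51571. The medians were 48159 to 51571 in WT 2 to 4, 21111 and 19977 in WT 1 and 5, and 13890 to 16931 in the 3 Meis1-flox/VE-Cre libraries, so depth of megakaryocytes moved with genotype. Over all cells the median UMIs were 26572 to 28553 in WT 1 to 4 and 12720.5 in WT 5. In Meis1-flox/VE-Cre they were 9611.5 to 14895, so by this measure WT 5 lay with those libraries. WT 4 had no antibody tag counts, and the CD44 tag was counted in WT 5 and Meis1-flox/VE-Cre only. Cell barcodes shared between libraries numbered 33, none of them in megakaryocytes, and 3 megakaryocytes, all in Meis1-flox/VE-Cre 1, were called as doublets. RNA of other cell types was present in part of the cells. Endothelial markers summed to at least 1000 CPM in 51 megakaryocytes, myeloid markers in 16 and mesenchymal markers in 4, which is 69 cells in all since some held more than 1 kind. Median UMIs were 29113 in these 69 cells and 17000 in the other 290. Counts are also given without them. UMIs were summed over the megakaryocytes of a library where there were at least 10, which leaves 4 WT and 3 Meis1-flox/VE-Cre libraries without WT 3, and fewer cells of a kind and less RNA per cell cannot be told apart in such sums.

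A gene was called leading in megakaryocytes where its mean over these 7 libraries was at least 20 CPM and its log2(CPM + 1) exceeded that of each other cell type by at least 2 in each library. Of 5293 genes at 20 CPM, 78 (1.47%) were leading, and together they held 4.30% of megakaryocyte UMIs, of which Pf4 alone held 1.97%. Of these 78 genes 23 were in a list, among them 7 adhesion receptors, 6 integrin signalling genes and 3 cargo genes, and 55 were in none. Since the clusters had been drawn from this RNA, none of this was tested.

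Of the adhesion receptors, 7 of 15 genes at 20 CPM were leading: both chains of the fibrinogen receptor (Itga2b, Itgb3), the 4 chains of the von Willebrand factor receptor (Gp1ba, Gp1bb, Gp5, Gp9) and the collagen receptor Gp6. Itga2b stood at 906, 519, 569 and 391 CPM in WT 1, 2, 4 and 5 and at 433, 549 and 331 CPM in Meis1-flox/VE-Cre 1 to 3. The highest mean in another cell type was 39.4 CPM in EMP. Gp1bb stood at 1212, 828, 665 and 974 CPM in WT and at 1102, 1321 and 729 CPM in Meis1-flox/VE-Cre, against 19.1 CPM in EMP. Both receptors were present in each library at levels that overlapped between the genotypes. Gp6 had a mean of 103.7 ± 38.8 CPM (SD, n = 7) and at most 0.102 CPM elsewhere. Gp9 was uneven, at 1044, 465, 460 and 489 CPM in WT and at 128, 364 and 64 CPM in Meis1-flox/VE-Cre. Clec1b, the podoplanin receptor, was abundant in megakaryocytes, with a mean of 876 CPM, yet was not leading, since arterial endothelium had 548 CPM. P-selectin (Selp), an adhesion protein of the alpha-granule membrane, had 6.85 CPM.

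Of the receptors for platelet agonists, F2rl2, a thrombin receptor, stood widest apart from the other types, with 540, 385, 356 and 320 CPM in WT and 298, 373 and 331 CPM in Meis1-flox/VE-Cre, against at most 2.94 CPM in EMP. P2ry1, an ADP receptor, was the other leading gene of 8 at 20 CPM. The other ADP receptor of platelets, P2ry12, had 6.98 CPM. None of the 9 thrombopoietin signalling genes at 20 CPM was leading.

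Of the alpha-granule cargo, 3 of 16 genes were leading. Pf4 stood at 34746, 25869, 18740 and 17654 CPM in WT and at 11485, 18598 and 10868 CPM in Meis1-flox/VE-Cre, with 82.9 CPM in Myeloid cells as the highest mean elsewhere. Thbs1, thrombospondin, had 2150, 1326, 879 and 1128 CPM in WT and 1504, 1370 and 1803 CPM in Meis1-flox/VE-Cre, against 12.3 CPM in pre-HE. Both genes were abundant in each library, and the 2 lowest values of Pf4 were in Meis1-flox/VE-Cre 1 and 3. Ppbp, the precursor of another platelet chemokine, had 1659, 1051, 951 and 1107 CPM in WT but 201, 1153 and 48.0 CPM in Meis1-flox/VE-Cre. Of the cargo genes that were not leading, some were higher in another type. Vwf, von Willebrand factor, had 126 CPM in megakaryocytes and 599 CPM in pre-HE. Rab27b, which docks granules, and Plek, a protein kinase C substrate, were leading among 16 granule genes, with means of 792 and 1176 CPM. Tubb1, the tubulin of the platelet coil, was the leading one of 21 cytoskeletal genes, with a mean of 117 CPM against at most 0.598 CPM elsewhere. Of the genes that link receptors to integrins, 6 of 21 were leading: Fermt3, Rap1b, Lat, Gnaz, Prkca and Prkcq. Alox12 and Tbxas1, which make 12-HETE and thromboxane, were leading among 5 eicosanoid genes.

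**Figure D2:**
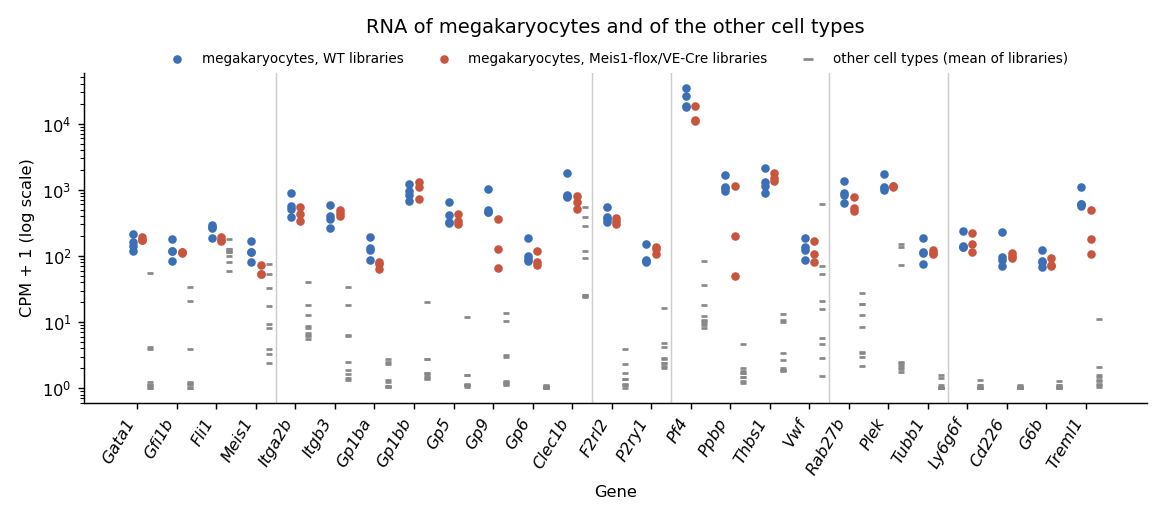
RNA of named genes on a log axis of CPM + 1, each blue point a WT library and each red point a Meis1-flox/VE-Cre library of megakaryocytes, with grey dashes for the mean of each other cell type. Pf4 lies at 10868 CPM or above in each library, and Gp9, Ppbp and Treml1 spread widely among the 3 red points.

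None of 19 transcription factors at 20 CPM was leading. Gata1, the main megakaryocyte and erythroid regulator, had 211, 159, 119 and 139 CPM in WT and 191, 176 and 172 CPM in Meis1-flox/VE-Cre, with 54.8 CPM in EMP. Gfi1b, a repressor of the same lineages, had a mean of 120 CPM against 32.7 CPM in EMP. Fli1 and Runx1 were shared, at 221 CPM against 182 CPM in pre-HE and at 137 CPM against 195 CPM in EHT cells. Meis1 had a mean of 92.8 CPM, close to the 73.3 CPM of EHT cells. The cell cycle list summed to 4481 CPM in megakaryocytes (3749 to 5201 over libraries), and to between 4096 CPM (aEC) and 5974 CPM (vEC_3) in the other types, with 5058 CPM in EMP and 4480 CPM in pre-HE. These sums include the inhibitors Cdkn1a, Cdkn1b, Cdkn1c and Cdkn2d, and Cdkn1c alone had 1354 CPM in pre-HE. After thinning, Top2a UMIs were seen in 48.2% of megakaryocytes and 73.9% of EMP, and Mki67 UMIs in 39.3% and 48.2%. Within the list Cdkn2d, a cyclin kinase inhibitor, was 5.51 times as high in megakaryocytes as in EMP, the next type. The inhibitors Cdkn1a, Cdkn1b and Cdkn1c were lower than elsewhere, at 38.3, 19.8 and 58.3 CPM. Their highest means were 183.5 CPM in aEC, 32.1 CPM in aEC and 1354 CPM in pre-HE. The cyclins were split too. Ccnd1 had 44.8 CPM against 405 CPM in vEC_2 and Ccnd2 203 CPM against 391 CPM in EHT cells. Ccnd3 had 467 CPM against 223.5 CPM in EMP. Progenitor genes were low. Kit had 9.09 CPM against 162 CPM in EHT cells, and Cd34 62.8 CPM against 988 CPM in pre-HE. Of the other cell types the profile was most like that of EHT (Pearson r = 0.740 over 6204 genes, of log2 CPM means) and EMP (r = 0.736 over 5898 genes), then Myeloid cells (r = 0.678 over 6064 genes). These correlations are across genes, which are not independent replicates, and the types came from the same libraries.

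Outside the lists, the leading genes with the widest gap included Ly6g6f, Cd226, G6b, Mrvi1, Treml1, Ank3, Irs2, Slc14a1 and Pls1. G6b is an inhibitory receptor of platelets, and Treml1 a receptor of their granules. Ly6g6f had 233, 140, 133 and 134 CPM in WT and 150, 218 and 113 CPM in Meis1-flox/VE-Cre, and at most 0.333 CPM in another type. Treml1 had 1086, 617, 564 and 612 CPM in WT and 182, 496 and 107 CPM in Meis1-flox/VE-Cre. In Gp9, Ppbp and Treml1 alike, Meis1-flox/VE-Cre 1 and 3 were the low libraries and Meis1-flox/VE-Cre 2 lay nearer to WT.

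Antibody tags of megakaryocytes were compared with those of EMP, EHT, Myeloid and vEC cells. Values are log2 ratios of the mean tag count per cell, megakaryocytes over the other type of the same library. The CD41 tag counted 1891, 1708 and 436 per megakaryocyte in WT 1, 2 and 5 and 604, 440 and 126 in Meis1-flox/VE-Cre 1 to 3, or 68.3% to 89.5% of all tags but CD44. Tags of all kinds also varied between libraries, with medians of 8 to 186 per vEC cell, so levels are compared as ratios within a library. CD41 was higher in 6 of 6 libraries than in EMP (3.58 ± 0.158, SD, n = 6), EHT (4.26 ± 0.658), Myeloid (4.54 ± 0.455) and vEC cells (7.20 ± 0.615). The tag of CD43, a sialoprotein of blood cells, was lower in 6 of 6 libraries than in EMP (-2.55 ± 1.11, SD), EHT (-1.83 ± 0.761) and Myeloid cells (-1.72 ± 1.28) and higher than in vEC (2.54 ± 0.488). CD117, the KIT protein of progenitors, was lower than in EHT cells (-1.11 ± 0.689, SD, 6 of 6 libraries) and higher than in vEC (1.21 ± 0.372, 6 of 6). Kit RNA went the other way over vEC. After thinning, Kit UMIs were seen in 3.06% of megakaryocytes, 49.1% of EHT cells and 11.3% of vEC cells. CD45.2 was lower than in Myeloid cells (-2.48 ± 1.00, SD, 6 of 6). CD27 was higher than in EMP (1.53 ± 0.423, SD, 6 of 6), although Cd27 RNA was only 2.05 to 7.04 CPM in megakaryocytes. CD44 was lower than in EMP, EHT and Myeloid cells and higher than in vEC (4.01 ± 0.279, SD) in 4 of 4 libraries.

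With 6 libraries the smallest p of the exact two-sided sign-flip permutation test is 0.03125, which 14 of the 24 pairs of tag and type reached. After Benjamini-Hochberg adjustment over the 24 pairs their adjusted p was 0.0536, and none passed 0.05 (0%), while as centred log ratios 16 of 24 did. Under the centred log ratio the direction was the opposite for CD117, CD43, CD45.2 and CD27 over vEC and for CD27 over EHT cells. That scale sets each tag against the other tags of the cell, of which CD41 takes most in megakaryocytes.

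**Figure D3:**
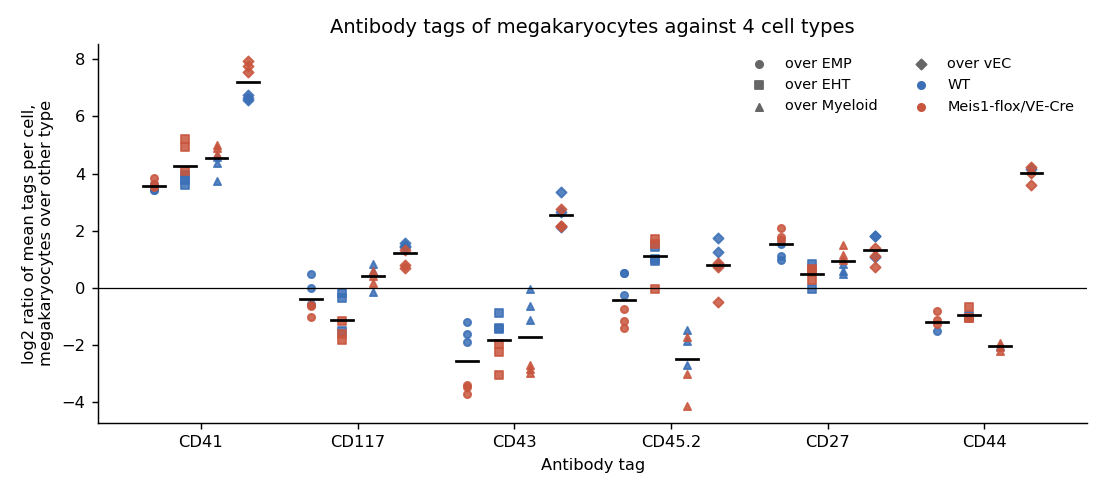
Log2 ratio of the mean tag count per cell, megakaryocytes over EMP (circles), EHT (squares), Myeloid (triangles) and vEC cells (diamonds) of the same library, for 6 antibody tags, with WT libraries in blue, Meis1-flox/VE-Cre libraries in red and the mean as a black line. CD41 lies above 3 in each library and against each type, and CD43 lies below 0 against the 3 blood types.

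Within megakaryocytes, cells were split at the median of the CD41 share of their tags in each of 6 libraries, and the RNA of the upper cells (CD41-high, 164) was compared with that of the lower ones (CD41-low, 166). Of the lists, adhesion receptors, cargo and cytoskeletal genes were mostly higher in CD41-high cells. Myeloid, endothelial and progenitor genes were lower in part, but none of them was lower without the cells with RNA of other types or by the raw CD41 count. Those cells had been chosen by their endothelial, myeloid or mesenchymal RNA, so their removal cannot test the endothelial and myeloid lists. In all, 1488 of 6819 genes (21.8%) passed an adjusted p below 0.1, 841 higher (12.3%) and 647 lower (9.49%), by edgeR's quasi-likelihood test with the library as a block and Benjamini-Hochberg adjustment. The split also moved with other things. Cells with RNA of other cell types numbered 21 in CD41-high and 42 in CD41-low, those with myeloid RNA 1 and 14, and the median UMIs were 15788 and 20906. Without the cells with RNA of other types 571 genes passed, 350 higher and 221 lower. With the raw CD41 count in place of its share 160 passed, 116 higher and 44 lower. The part of cell mixture and depth in the remaining calls was not tested.

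Of the adhesion receptors, 13 of 15 tested were higher in CD41-high cells and none lower, 12 of 15 without the cells with RNA of other types and 9 of 15 by the raw CD41 count. The median log2 fold change of the list was 0.77, against -0.03 over all genes tested. Itga2b, which encodes the protein that the tag reads, ranged from 541 to 1461 CPM in CD41-high cells (median 644) and from 245 to 734 CPM in CD41-low cells (median 347). It was higher in 6 of 6 libraries, by 0.97 ± 0.0949 on the log2 scale (SE, edgeR adjusted p = 6.03e-05). Gp9 rose by 1.03 ± 0.142 (SE, edgeR adjusted p = 0.000473) and Gp1bb by 0.90 ± 0.115 (SE, edgeR adjusted p = 0.000292). The 2 adhesion genes that did not pass were Itga6, a laminin receptor chain, and Pecam1, which encodes the CD31 used for the sort.

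Agonist receptors were higher in 6 of 9 and lower in none. Among them P2ry1 rose by 1.15 ± 0.189 on the log2 scale (SE, edgeR adjusted p = 0.00127). Of the cargo genes 11 of 18 were higher and 1 lower. Pf4 had 12682 to 49788 CPM in CD41-high cells and 7729 to 31198 CPM in CD41-low cells, and it rose by 0.87 ± 0.135 (SE, edgeR adjusted p = 0.000943) with the same direction in 6 of 6 libraries. F5, coagulation factor V, rose by 1.12 ± 0.163 (SE, edgeR adjusted p = 0.000651). The cargo gene that fell was Igf1, a growth factor, by 1.99 on the log2 scale. Cytoskeletal genes were higher in 16 of 21, of which 6 passed without the cells with RNA of other types. Tubb1 rose by 1.17 ± 0.180 (SE, edgeR adjusted p = 0.000925), from a median of 81.8 to 177 CPM. Integrin signalling genes were higher in 14 of 22 and lower in 1, granule genes higher in 7 of 19, and Alox12 and Tbxas1 were the 2 of 5 eicosanoid genes that rose. Thrombopoietin signalling genes were higher in 5 of 12. By the raw CD41 count 9 of 18 cargo, 9 of 21 cytoskeletal, 6 of 21 integrin signalling, 2 of 19 granule, 1 of 9 agonist receptor, 1 of 5 eicosanoid and 0 of 12 thrombopoietin signalling genes were higher.

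Transcription factors were higher in 6 of 21 and lower in 1, with 3 of 19 higher without the cells with RNA of other types and 0 of 20 by the raw CD41 count. Gata1 rose by 0.62 ± 0.112 (SE, edgeR adjusted p = 0.00221) and Nfe2, a factor of late megakaryocytes, by 0.78 ± 0.167 (SE, edgeR adjusted p = 0.00665). The values of Gfi1b (0.21 ± 0.119, SE), Runx1 (0.19 ± 0.147) and Meis1 (0.16 ± 0.134) did not pass. Of 35 cell cycle genes 10 were lower and 2 higher. Without the cells with RNA of other types 3 of 32 were lower and 1 higher, without the globin-rich cells 18 of 32 were lower and 2 higher, and by the raw CD41 count 0 of 35 were lower and 3 higher. The lower ones included 5 subunits of the replicative helicase (Mcm2, Mcm3, Mcm4, Mcm6, Mcm7) and Cdk6, which drives entry into the cycle and fell by 2.25 on the log2 scale. Those that rose were Cdkn2d (0.77 ± 0.118, SE, edgeR adjusted p = 0.000925) and the cyclin Ccnd3 (0.56 ± 0.0985, SE, edgeR adjusted p = 0.00200). Of the genes of mitosis, Aurkb (-0.39), Plk1 (-0.28) and Top2a (-0.43) did not pass, while without the globin-rich cells Plk1 (-0.77) and Top2a (-0.74) did.

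Among genes that moved one way in each library and whose mean log2 CPM reached 5, the 5 largest rises were globin genes, Hbb-bs (2.37 on the log2 scale), Hba-x (2.23), Hbb-y (2.17), Hba-a1 (1.76) and Hba-a2 (1.67). Hbb-y ranged from 408 to 33668 CPM in CD41-high and from 101.0 to 11639 CPM in CD41-low cells, so the ranges overlapped widely, while each library was higher in its CD41-high cells. Erythroid genes were higher in 9 of 12 by the CD41 share, in 2 of 9 without the globin-rich cells described later and in 0 of 12 by the raw CD41 count. Globin genes of this list chose the globin-rich cells, so the count without those cells is not independent of the list. The 5 largest falls were Apoe (1.74 lower on the log2 scale), Phgdh (1.5), Rac2 (1.41), Igfbp4 (1.37) and Sepp1 (1.31). Apoe encodes a lipid carrier abundant in macrophages, Phgdh an enzyme of serine synthesis and Rac2 a GTPase of blood cells. Without the cells with RNA of other types, Sepp1 had the opposite direction (1.08, edgeR adjusted p = 0.138), and Phgdh and Rac2 still passed (-1.58 and -1.45). Myeloid markers were lower in 7 of 8 tested and endothelial ones in 9 of 11. Without the cells with RNA of other types 0 of 1 and 0 of 3 were lower, and by the raw CD41 count 0 of 7 and 0 of 10, with 1 myeloid marker higher. Both lists had been used to choose the cells removed, so the counts without those cells were largely fixed in advance.

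**Figure D4:**
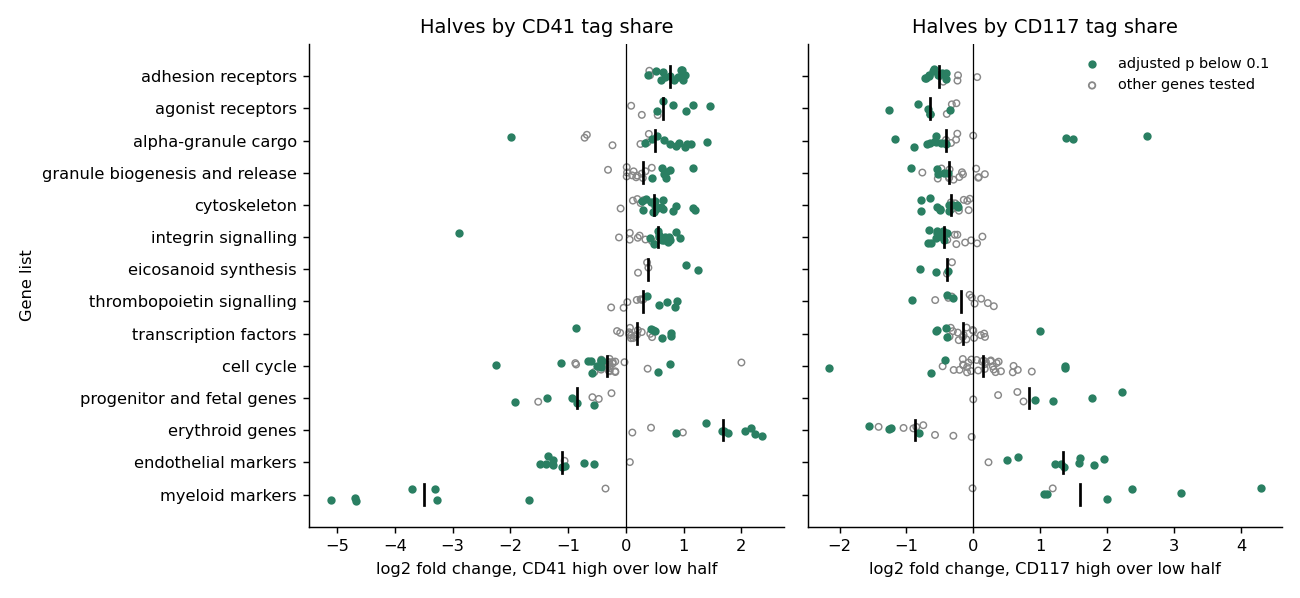
Log2 fold change of each gene of 14 lists between cells above and below the median tag share, for CD41 (left) and CD117 (right). Filled points passed an adjusted p below 0.1 in edgeR, and the black line is the median of the list. Adhesion receptors lie to the right of 0 for CD41 and mostly to the left for CD117.

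Cells were split by CD117 in the same way. The 2 splits are not independent, since both are shares of the same tags: 129 of the 164 CD117-high cells (78.7%) were CD41-low, which is 77.7% of those. By edgeR 778 of 6631 genes (11.7%) passed, 354 higher (5.34%) and 424 lower (6.39%) in CD117-high cells. Without the cells with RNA of other types 311 passed, and without WT 5, 165. Adhesion receptors were lower in 11 of 15, agonist receptors in 6 of 9, cargo genes in 10 of 18 and integrin signalling genes in 13 of 21. By the raw CD117 count these were 6 of 15, 3 of 9, 2 of 18 and 7 of 21. Itga2b fell by 0.67 on the log2 scale (edgeR adjusted p = 0.00725), Pf4 by 0.56 (adjusted p = 0.0120) and Gata1 by 0.55 (adjusted p = 0.0204). The 3 cargo genes that rose were Igf1, Fn1 and Sparc, which are made by many cells outside the platelet line.

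Progenitor genes were higher in 4 of 8: Cd34, Myb, Hmga2 and Igf2bp1. Myeloid markers were higher in 6 of 8, and cells with myeloid RNA numbered 12 in CD117-high and 3 in CD117-low. Without the cells with RNA of other types 1 of 4 progenitor genes and 0 of 1 myeloid markers passed. Myeloid markers had been used to choose those cells, so their count without them was largely fixed in advance. Kit, which encodes the protein that this tag reads, was too low to be tested. The 5 largest rises were H19 (1.93 ± 0.275 on the log2 scale, SE, edgeR adjusted p = 0.00409), an imprinted fetal RNA, Cldn5 (1.80), Cd34 (1.78), Zfp36l1 (1.73) and Ramp2 (1.65). Cldn5 and Ramp2 are endothelial genes, and endothelial markers were higher in 9 of 10 tested. Cells with endothelial RNA numbered 35 in CD117-high and 11 in CD117-low. H19 was higher in 6 of 6 libraries, with 54.0 to 310.1 CPM against 6.01 to 77.4 CPM, and still passed without the cells with RNA of other types (1.38, edgeR adjusted p = 0.0378). Without those cells Cldn5, Cd34 and Ramp2 were too low to be tested and 0 of 4 endothelial markers passed. The endothelial list had been used in the same way to choose the cells removed. The 5 largest falls were Ajap1 (1.304), Hist1h2bc (0.96), Sord (0.92), Mdm2 (0.87) and Prune (0.86), among which Mdm2, the regulator of p53, had the opposite direction without the cells with RNA of other types (0.34, edgeR adjusted p = 0.688).

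Globin RNA divided the megakaryocytes. Cells with at least 5000 CPM of globin RNA numbered 106, of which 21 were among the 192 WT and 85 among the 167 Meis1-flox/VE-Cre cells. Their share was 27.3%, 14.3%, 0%, 16.7% and 3.92% in WT 1 to 5 and 67.2%, 23.1% and 71.1% in Meis1-flox/VE-Cre 1 to 3. Meis1-flox/VE-Cre 2 lay within the WT range. The WT 3 value rests on 0 of 5 cells. Summed globin RNA was 3831, 7262, 402 and 640 CPM in WT 1, 2, 4 and 5 and 31153, 8632 and 37354 CPM in Meis1-flox/VE-Cre 1 to 3. In vEC cells of the same libraries it was 19.9 to 206 CPM, and 8 of 9417 vEC cells reached 5000 CPM, or 0.0850%. Among EMP 8 of 747 cells did, 1.07%. EHT cells held 57.7 to 240 CPM and Myeloid cells 15.1 to 2089 CPM. In WT 4 the Myeloid sum, 2089 CPM, lay above that of the megakaryocytes, 402 CPM, and in WT 3 megakaryocytes had 83.1 CPM against 57.7 CPM in EHT cells. The cut was chosen after the values had been seen, so no test is given.

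Between genotypes, few megakaryocyte genes passed. By edgeR's quasi-likelihood test on 4 WT and 3 Meis1-flox/VE-Cre sums, 16 of 7770 genes (0.206%) had an adjusted p below 0.1, 11 higher (0.142%) and 5 lower (0.0644%) in Meis1-flox/VE-Cre. No gene of the platelet, transcription factor, cell cycle or marker lists passed (0 genes in 15 lists with tested members), while 686 of the 7770 genes had an unadjusted p below 0.05 and DESeq2 called 86. The named genes were Cpox, an enzyme of heme synthesis, Ptp4a3, a phosphatase, Bmyc, a relative of Myc, and Mtss1l. Cpox had 35.8, 49.4, 30.9 and 42.6 normalized CPM in WT and 168, 88.0 and 134 in Meis1-flox/VE-Cre, and it rose by 1.70 ± 0.239 on the log2 scale (SE, edgeR adjusted p = 0.0218). Ptp4a3 had 121, 120, 120 and 101 against 210, 191 and 204 normalized CPM and rose by 0.81 ± 0.139 (SE, edgeR adjusted p = 0.0749). Bmyc had 113, 81.8, 126 and 76.1 against 16.3, 33.4 and 13.1 normalized CPM and fell by 2.21 on the log2 scale (edgeR adjusted p = 0.0228). Mtss1l had 63.3, 53.6, 47.1 and 50.7 against 12.7, 26.3 and 21.0 normalized CPM and fell by 1.43 (edgeR adjusted p = 0.0850). Lack of overlap between the groups was part of the rule that named these 4 genes. The other 9 genes higher in Meis1-flox/VE-Cre, which fell outside the naming rule and are listed with their values known, were Ackr1, Aqp8, Csf2rb, Csf2rb2, Fcna, Hexim2, Hfe2, Pim2 and Tmod1, and the other 3 lower ones were Kcnj5, Nrarp and Serpinb2.

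The number of calls changed with the globin-rich cells and with single libraries. Without the globin-rich cells 0 of 6829 genes passed (466 had an unadjusted p below 0.05), and the log2 fold change of Cpox was 1.18 (edgeR adjusted p = 0.281). That removal left 24, 24, 20 and 98 cells in WT 1, 2, 4 and 5 and 21, 50 and 11 in Meis1-flox/VE-Cre 1 to 3. The loss of these cells and the loss of counts cannot be told apart. No gene passed either without WT 4, without Meis1-flox/VE-Cre 1, after thinning to 5000 UMIs per cell or with the median UMIs as a covariate, and without WT 5 118 passed. Depth and genotype cannot be told apart, since the 3 Meis1-flox/VE-Cre libraries had the lowest median UMIs per megakaryocyte. Over all cells the median of WT 5 lay within their range. Erythroid genes had a median log2 fold change of 2.54 in 13 genes tested, against -0.01 over all genes, and none passed. Hbb-bh1 had 658, 767, 22.8 and 188 normalized CPM in WT and 8981, 2001 and 12977 in Meis1-flox/VE-Cre (4.29 ± 0.921 on the log2 scale, SE, edgeR adjusted p = 0.171).

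Meis1 itself had 182, 112, 78.0 and 112 normalized CPM in WT 1, 2, 4 and 5 and 53.3, 70.8 and 55.2 in Meis1-flox/VE-Cre 1 to 3. The groups did not overlap, though how many of all genes did the same was not counted here. The log2 fold change of Meis1 was -1.0 ± 0.268 (SE, edgeR adjusted p = 0.297), which did not pass. Meis1 UMIs were seen in megakaryocytes of each Meis1-flox/VE-Cre library, and 3′ counts do not tell floxed from intact transcripts. Gata1 had 0.22 ± 0.215 (SE, edgeR adjusted p = 0.820). The adhesion list had a median log2 fold change of -0.32 in 15 genes, the cargo list of -0.34 in 18 and the eicosanoid list of -0.63 in 5, with 0 genes passing in each. Pf4 had -0.83 ± 0.282 (SE, edgeR adjusted p = 0.382) and Gp9 -1.75 ± 0.516 (SE, edgeR adjusted p = 0.329).

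**Figure D5:**
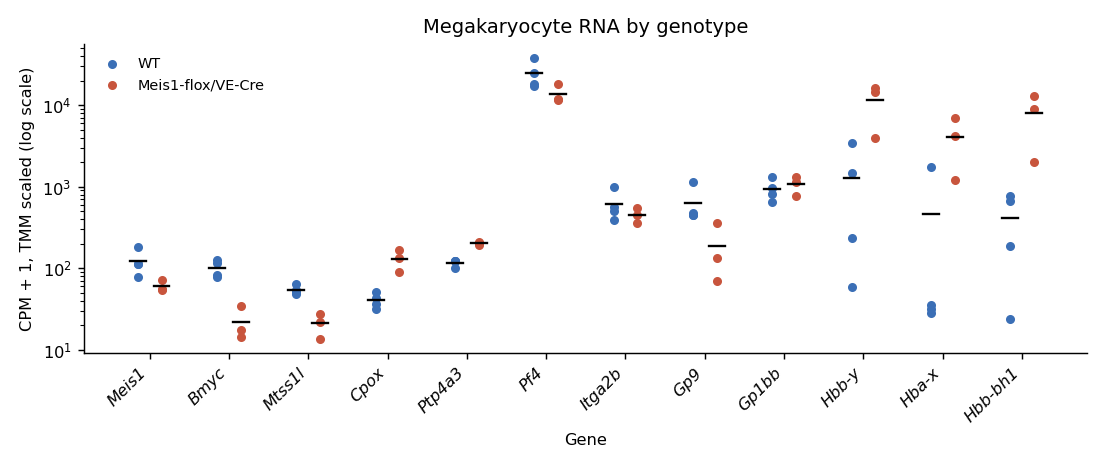
RNA of megakaryocytes by genotype on a log axis of normalized CPM + 1, each point a library, with the mean as a black line. Bmyc, Mtss1l, Cpox and Ptp4a3 passed an adjusted p below 0.1. Meis1 lies at 78.0 to 182 in WT and at 53.3 to 70.8 in Meis1-flox/VE-Cre but did not pass. How many of all genes were as far apart was not counted. The groups overlap for Hba-x.

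The number of libraries was too small for any antibody tag to pass the threshold between genotypes (0 of 6, 0%), and CD44 had only 1 WT library. Values are log2 ratios over vEC cells of the same library. CD41 had 6.74, 6.63 and 6.58 in WT 1, 2 and 5 and 7.93, 7.77 and 7.54 in Meis1-flox/VE-Cre, a difference of 1.097. CD117 had 1.47, 1.58 and 1.42 against 0.697, 1.32 and 0.794, a difference of -0.55. In both the groups did not overlap, which gives p = 0.1, the smallest that an exact permutation test of 3 against 3 allows, and an adjusted p of 0.3 over 6 tags. For CD41 the difference without division by vEC was -1.80, and the median tags of a vEC cell were 180, 186 and 20 in WT against 28, 15 and 8 in Meis1-flox/VE-Cre.

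Pf4 varied widely among the cells of each library. Its median over cells ranged from 8814 CPM in Meis1-flox/VE-Cre 3 to 31977 CPM in WT 1. Within libraries, cells with more Pf4 had more RNA of adhesion receptors (Spearman's rho 0.526 to 0.886 over 7 libraries of 24 to 102 cells). They had less of the cell cycle list, here without its Cdkn inhibitors (-0.111 to -0.698). The weakest relation to the cell cycle, -0.111, was that of Meis1-flox/VE-Cre 1, and in Meis1-flox/VE-Cre 3 it was -0.498. Both measures are shares of the UMIs of one cell, and these values are given as a description. Depth moved with them as well. With the UMIs of a cell, rho was 0.272 to 0.549 for the cell cycle list and -0.458 to 0.0224 for Pf4. The part of depth was not tested.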

How the data were processed

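The authors deposited raw UMI counts of 28014 genes and counts of 6 antibody tags per cell, with their cell type names. Per the labels, reads had been processed with Cell Ranger 3.0.2 on mm10. The deposited cells held at least 2001 genes and at most 9.98% mitochondrial UMIs. All values were whole. Libraries, each from 1 pool, were the replicates, and whether pools shared litters is not given in the sources used here. p-values thus measure the spread between pools.

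Counts were summed over megakaryocytes per library (at least 10 cells). Genes passing edgeR's expression filter were tested with the quasi-likelihood test (edgeR 4.0.16, R 4.3.3, TMM) at a Benjamini-Hochberg adjusted p below 0.1. Tag groups (6 libraries, at least 20 cells) had the library as a block. Tags were tested as log2 ratios within a library, by exact sign-flip or permutation tests (scipy 1.17.1), with adjusted p below 0.05. Intervals cover counting error only. Doublets were called with Scrublet (scanpy 1.11.5), 83 of 15168 cells (0.547%), and kept in the main analysis. Named genes passed the threshold with a mean log2 CPM of at least 5, up to 5 per direction. By genotype their groups also had no overlap, and by tag they moved one way in all libraries. Genes of the lists and up to 10 leading genes outside them were named as well. The members and gene lists were chosen with earlier results of these data known. In data simulated for the genotype comparison (7770 genes), 96% of 200 genes changed by 1.5 on the log2 scale were recovered and 11.1% of calls were false. The simulation used the fitted dispersion trend, the same gene shares in each library before the change, and changed genes above 20 CPM only. It does not cover genes of lower level or of wider spread between libraries. DESeq2 1.42.0, other scalings, filters and left-out libraries were tried as alternatives. Results of a few genes that these rules would name are not reported here.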

Additional observations from a re-analysis of the deposited data

Results flagged for a closer look

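In groups of 4 or 5 WT libraries, 39 results were checked for a library far from the rest and 7 had one. Chance gives about 1 in 20 for independent, normally distributed values. The 39 results share their libraries and are not independent, so 7 of 39 does not measure an excess. As a share of blood cells, megakaryocytes were 19.1% in WT 5 against 4.59% to 7.53% in the other WT libraries. WT 1 stood apart in 5 genes. Gp9 had 1044 CPM there against 460 to 489 CPM, Treml1 1086 against 564 to 617 CPM, Ly6g6f 233 against 133 to 140 CPM, Cd226 226 against 70.2 to 95.2 CPM and Nfe2 158 against 78.2 to 84.4 CPM. Hba-x had 1812 CPM in WT 2 against 27.5 to 31.6 CPM. The causes were not tested.

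The count table also holds a CreERT2 row that no comparison used. It had 34 UMIs in Meis1-flox/VE-Cre cells, 12, 3 and 19 by library, and 0 in each of the 5 WT libraries. None of these UMIs was in a megakaryocyte.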

How the results depend on the processing

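The number of genes called by genotype, 16 in the main fit, was 8 at an adjusted p below 0.05, 86 with DESeq2, 273 with no filter on low counts, 9 without called doublets, 0 after thinning to 5000 UMIs per cell (290 at an unadjusted p below 0.05), 0 with median UMIs as a covariate (537), 10 with WT 5 as the only WT library and 0 to 118 with 1 library left out. Among alternatives chosen after seeing the data it was 25 with WT 3 included, 25 without cells with RNA of other cell types and 0 without globin-rich cells. For the CD41 groups (1488 genes) it was 160 by the raw tag count (135 of them among the 1488), 289 after thinning, 603 with DESeq2, 571 without cells with RNA of other types (519 among the 1488) and 878 to 1369 with 1 library left out. For the CD117 groups (778 genes) it was 378 by the raw tag count, 27 after thinning, 250 with DESeq2, 311 without cells with RNA of other types and 165 (without WT 5) to 881 with 1 library left out, with 283 without WT 2 and 483 without WT 1. Of the 10 genes called by genotype with WT 5 as the only WT library, 1 was among the 16 of the main fit. With 1 WT library the spread between WT libraries is not measured, so those 10 calls do not back the main ones. A difference of at least 1 in place of 2 gave 181 leading genes. The share difference ranged from 0.0204 to 1.03 percentage points with 1 library left out and was -0.114 as a share of blood cells.

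As centred log ratios 16 of 24 tag pairs passed, and the direction reversed for CD117 over vEC (-1.34), CD43 over vEC (-0.33), CD45.2 over vEC (-1.65), CD27 over EHT (-0.13) and CD27 over vEC (-1.31). Without division by vEC the genotype difference of CD41 was -1.80. Sepp1 reversed in the CD41 groups by the raw tag count (0.028) and without cells with RNA of other types (1.08), and Mdm2 did in the CD117 groups without those cells (0.34). The causes were not tested. The labels number replicates in both genotypes. Deviations from the group means correlated at 0.107 for number 1 and -0.0835 for number 2. Between libraries of unlike number the correlations ran from -0.122 to 0.0653. These values cannot tell whether the numbers pair the samples. With the replicate number as a block 71 genes were called by genotype, 5 of them among the 16, against 31 in the same libraries without the block. Under the block the share difference was 0.869 points (p = 0.25, exact permutation test) and that of the CD43 tag 0.066. For single genes, tags and list values, 584 alternatives kept direction and side of the threshold, 13 newly passed and 63 no longer passed. Depth limits the genes of low level most: at 5000 UMIs per cell 2899 genes could be tested by genotype.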
